A study of Mus musculus with 4 samples.

Results

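The cultures described here were mouse cortical neurons in which calmodulin was knocked down and replaced at the same time. They are both samples of the series whose label names lentiviral shRNAs against calmodulin together with a wild-type calmodulin protein as rescue, 2 of the 4 samples in all. Neurons came from pups at postnatal day 0 of a mixed SV129 x C57BL/6 background, Syt1-deficient or wild-type, with no statement of which array held which. Lentivirus was added at 5 days in vitro. RNA came from cultures at 14 to 15 days in vitro and was read on Affymetrix mouse Gene 1.0 ST arrays, which carry probe sets across whole transcripts. The rescue group received the calmodulin shRNAs with shRNA-resistant wild-type calmodulin, the knockdown group those shRNAs alone, and the control group control lentivirus, so every group was infected with a lentivirus. The medium held serum and the mitosis inhibitor Ara-C. Each group had 2 samples, 1 in each of 2 repeats, and the deposited values were ratios of a test array to the control array of the same repeat. The control arrays themselves were not analysed here, and the rescue and knockdown ratios of a repeat share 1 control array.

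Calmodulin is a small protein that senses calcium in neurons. On binding calcium it switches on kinases, the phosphatase calcineurin, adenylyl cyclases and other enzymes, and through them it links neuronal firing to transcription. It is encoded by several genes that give the same protein. A rescue with a resistant construct is used to separate effects of losing the protein from other effects of the virus or the shRNA, and the question here was which transcripts still stood off control, or lay past it on the other side, when calmodulin was supplied again.

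Values are given on the log2 scale, where 0 is equality with control, for 19938 genes, each the mean over the probe sets with that symbol. The standard deviation over genes was 0.243 in rescue repeat 1 and 0.232 in rescue repeat 2, against 0.242 and 0.349 in the knockdown. The median over all genes was -0.01 in each rescue repeat. Ratios carry no intensity, so the presence of neuronal or other cell type markers could not be checked by level, and dim probe sets cannot be recognised. In bulk RNA, fewer cells of a type and less RNA per cell cannot be told apart.

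Most transcripts lay near control in the rescue. In both repeats 95.9% of genes were within 1.5-fold of control, and 9034 genes had opposite signs in the repeats. A share of 24.9% lay above control in both repeats and 29.8% below it in both. In limma, with the spread estimated over all 4 columns, 0 of 19938 genes passed an adjusted p of 0.05 (0%, smallest adjusted p = 0.154), while 1484 had an unadjusted p under 0.05, 588 above control and 896 below. With the repeat as a block, 25 genes passed (0.125%), 12 above and 13 below. The block removes the shift between repeats that rescue and knockdown share. Its p-values, here and below, therefore do not count that shift as error of the rescue mean. A fit of the rescue columns alone passed 176 genes (0.883%), 72 above and 104 below, on 1 residual and 21.9 prior degrees of freedom. Leaving out knockdown replicate 1 or knockdown replicate 2 amounts to that fit of 176, and leaving out rescue replicate 1 or rescue replicate 2 gave 0. The number of arrays limits the precision, with a median of 0.29 to either side for the 95% interval of a gene's rescue mean.

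By size alone, 32 genes were at least 1.5-fold above control in both rescue repeats (0.16% of genes) and 36 at least 1.5-fold below (0.181%). Quantile normalization changed this split to 39 and 73. At a 2-fold limit the counts were 4 above (0.0201%) and 3 below (0.015%). A single repeat held many more: 232 genes were 1.5-fold above control in repeat 1 and 195 in repeat 2, and 222 and 233 were 1.5-fold below. The repeats share no control array, so each can be read in the other. The 232 genes high in repeat 1 had a median of 0.14 in repeat 2, and 161 of them were above 0 there. The 222 genes low in repeat 1 had a median of -0.18 in repeat 2, with 154 below 0. Of the 233 genes low in repeat 2, 198 were below 0 in repeat 1, where their median was -0.28. Across all genes, which are not independent replicates, the repeats correlated at 0.21.

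**Figure D1:**
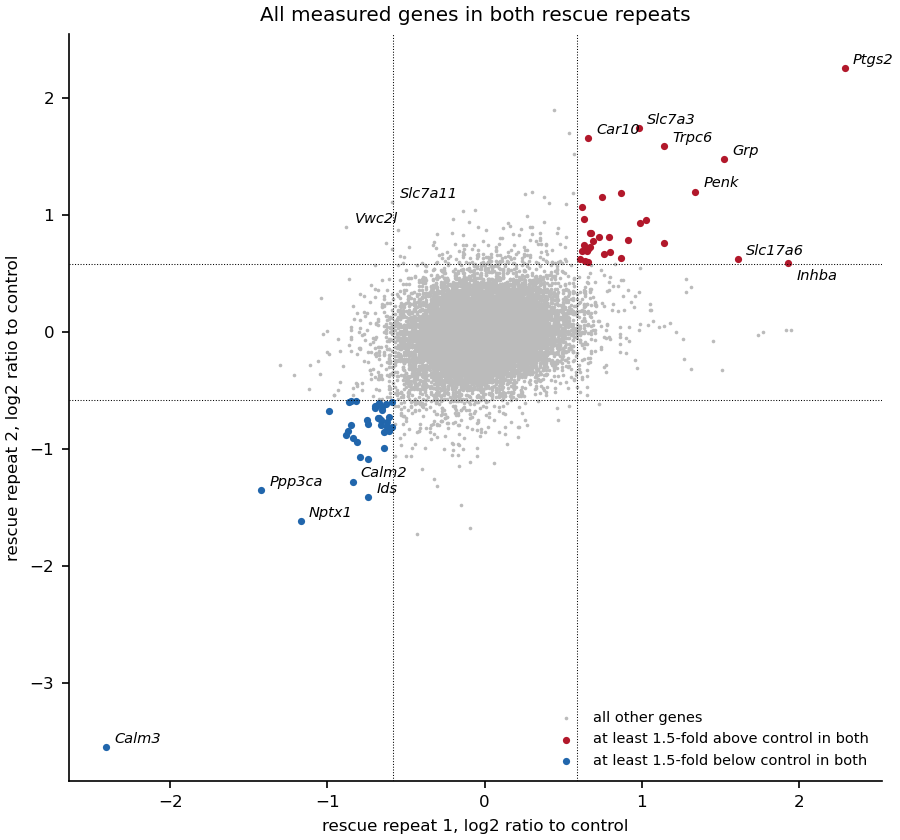
Log2 ratio to control of 19938 genes in rescue repeat 1 (x axis) and rescue repeat 2 (y axis), 1 point a gene, with dotted lines at 1.5-fold. Ptgs2 is the highest gene in both repeats (2.29 and 2.26), Calm3 lies lowest (-2.41 and -3.55), and most points form a cloud within the lines.

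The targeted genes were still low. Calm3, a calmodulin gene, was at -2.41 in repeat 1 and -3.55 in repeat 2, a mean of 7.9-fold below control (log2 -2.98, SE 0.30, n = 2; limma adjusted p = 0.154, 1.58e-05 with the block). Calm2, another calmodulin gene, was at -0.84 and -1.28, and its 2 probe sets gave means of -1.13 and -0.99. In the knockdown Calm3 was at -1.32 and -2.40 and Calm2 at -1.08 and -1.72, so Calm3 was lower in the rescue than in the knockdown of both repeats, while Calm2 was higher. The rescue minus knockdown difference was -1.12 for Calm3 (95% interval -2.09 to -0.15, limma adjusted p = 0.613, 0.0169 with the block) and 0.34 for Calm2 (-0.24 to 0.91). The sources used here do not give whether either gene's probes match the resistant construct.

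Farthest above control stood Ptgs2, which encodes the inducible cyclooxygenase of prostaglandin synthesis. It was at 2.29 and 2.26 in the rescue repeats, the highest value of any gene in each, and at -1.25 and 0.19 in the knockdown. Its rescue mean was 4.86-fold above control (95% interval 3.12 to 7.55; limma adjusted p = 0.328, 0.00898 with the block). Other members of the prostaglandin list did not share this distance: over 14 measured genes the median was 0.11, and of these 14 only Ptgs2 was past 1.5-fold in both repeats.

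Signalling peptides and a processing enzyme also lay far above control. Grp, which encodes gastrin-releasing peptide, was at 1.52 and 1.48, 2.82-fold above control. Penk, the enkephalin precursor, was at 1.34 and 1.20 (mean 1.27, SE 0.22; limma adjusted p = 0.414, 0.0493 with the block). Pcsk1, the convertase that cleaves peptide precursors, was at 0.57 and 1.52 (mean 1.04; block adjusted p = 0.0482 in limma), and so missed the 1.5-fold limit in repeat 1. In the knockdown Grp was at -1.28 and 0.30, Penk at -0.75 and 0.29, and Pcsk1 at -1.18 and 0.54. In these 3 genes both rescue repeats were above control, and the knockdown repeats lay on opposite sides of it. For Grp and Penk the choice by the rescue repeats fixed the first part. Other peptides lay on the other side: Cort, which encodes cortistatin, was at -0.67 and -0.74. Of 28 measured neuropeptide and granule genes, 14 lay above control in both repeats and 7 below in both, beside 24.9% and 29.8% of all genes. Their median was 0.13.

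Membrane channels, transporters and receptors were also among the far genes. Trpc6, a calcium-permeable cation channel, was at 1.14 and 1.59, 2.58-fold above control (limma adjusted p = 0.414, 0.00898 with the block). Over the 20 measured genes of its channel list the median was 0.04, and the next member by size, Ryr1, a calcium release channel, had a mean of 0.23. Slc7a3, a cationic amino acid transporter, was at 0.98 and 1.74 in the rescue and at 0.19 and 1.55 in the knockdown. Its rescue mean of 1.36 had a limma adjusted p of 0.464, 0.00984 with the block and 2.48e-05 in the rescue columns alone. Slc17a6, the vesicular glutamate transporter VGLUT2, was at 1.61 and 0.62. Crhr1, the receptor for corticotropin-releasing hormone, was at 0.73 and 0.81, and at -0.41 and -0.40 in the knockdown (rescue limma adjusted p = 0.414, 0.0482 with the block). Car10, a carbonic anhydrase-related protein, was at 0.66 and 1.66 (block adjusted p = 0.00898 in limma). These genes were above control in both rescue repeats, which the choice of far genes favoured, with the repeats closest to each other in Crhr1.

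The rest of the 15 highest genes lay between 1.5-fold and 2-fold above control in at least 1 repeat. They included Arc, a synaptic immediate early gene (0.99 and 0.93), Rem2, a small GTPase that acts on calcium channels (0.79 and 0.81), and Rgs2, a regulator of G protein signalling (0.91 and 0.79). Acvr1c, an activin and nodal type I receptor, was at 1.03 and 0.96, and Nptx2, a secreted pentraxin of excitatory synapses, at 1.14 and 0.76. Rgs13, Klf10 and Cds1 had means of 0.74, 0.76 and 0.74. Lcn2, an iron-siderophore binding protein raised in inflammation, was at 0.75 and 1.15, but its knockdown values of -0.31 and 2.43 differed widely, and its rescue interval reached from -0.20 to 2.10.

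Below control, ranked by the repeat nearer to it, Ppp3ca came after Calm3. It encodes a catalytic subunit of calcineurin, the calcium- and calmodulin-dependent phosphatase, and was at -1.42 and -1.35, 2.61-fold below control (log2 interval -1.81 to -0.95; limma adjusted p = 0.414, 0.019 with the block). Nptx1, a neuronal pentraxin, was at -1.17 and -1.62, 2.63-fold below control (block adjusted p = 0.0176 in limma). Its relative Nptx2 was above control in both repeats, so the pentraxins stood on opposite sides.

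Gad1, the enzyme that makes most GABA in the brain, was at -0.84 and -0.91 (mean -0.87, SE 0.14; limma adjusted p = 0.414, 0.0482 with the block). Nr3c2, the mineralocorticoid receptor, was at -0.88 in both repeats, and Kit, a receptor tyrosine kinase, at -0.87 and -0.85. Htr3a, an ionotropic serotonin receptor subunit found on a class of interneurons, was at -0.81 and -0.94, and Prox1, a homeobox factor, at -0.99 and -0.68. Ap2a2, a subunit of the clathrin adaptor AP-2, was at -0.79 and -1.07, and Ids, a lysosomal sulfatase, at -0.74 and -1.41, both past the threshold with the block (limma adjusted p = 0.0482 and 0.0176). Ina, the neurofilament-like protein internexin, was at -0.75 in both repeats, and its 2 probe sets had means of -0.77 and -0.72. Nr3c2, Kit and Ina differed by at most 0.02 between the rescue repeats. In the knockdown the same genes spread further, with Nr3c2 at 0.05 and -1.34. The choice by the rescue repeat nearer to control favours rescue repeats that agree and asked nothing of the knockdown. The tighter rescue spread is therefore no result.

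**Figure D2:**
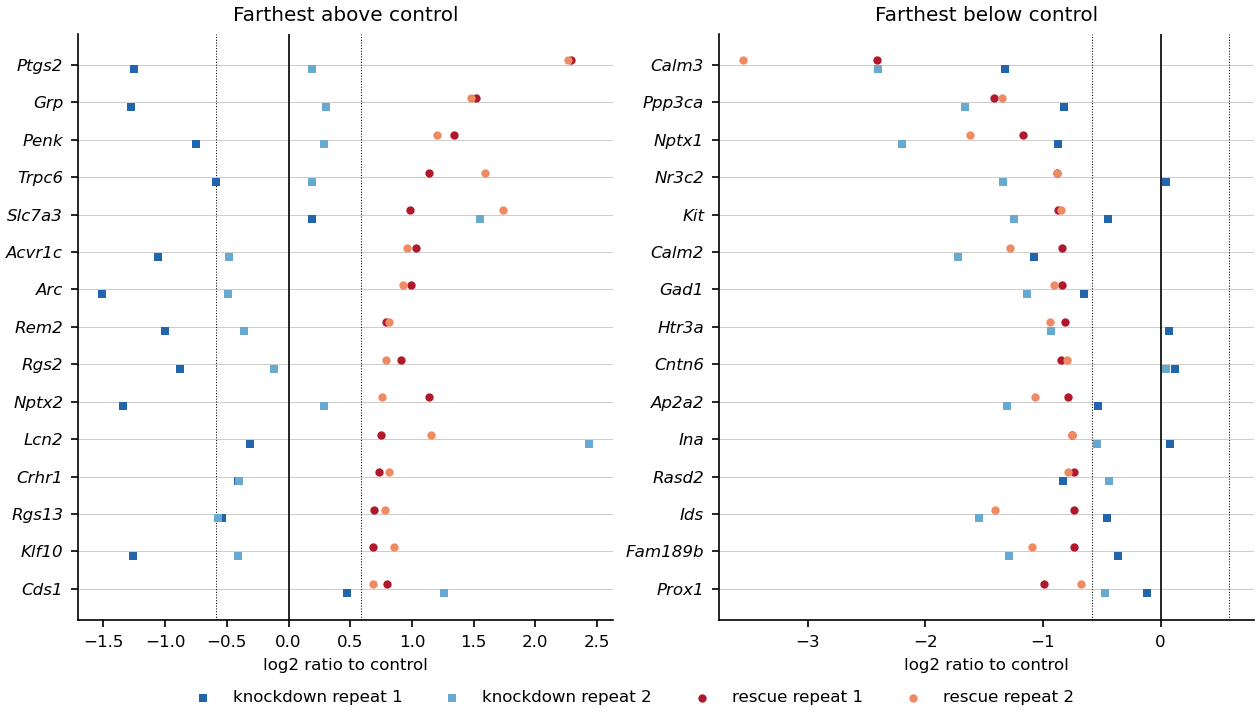
Log2 ratio to control of the 15 genes farthest above (left) and the 15 farthest below (right) control in both rescue repeats, circles for the rescue repeats and squares for the knockdown repeats, with dotted lines at 1.5-fold. The rescue circles of Ptgs2 (2.29 and 2.26) lie close together, and its knockdown squares (-1.25 and 0.19) lie apart. Genes were chosen by their rescue repeats, which favours circles that lie close together.

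Values past control on the side opposite to the knockdown describe an overshoot. At least 1.5-fold above control in both rescue repeats and below control in both knockdown repeats were 15 genes, and 1 gene, Cntn6, was the reverse. Acvr1c was at 1.03 and 0.96 in the rescue and at -1.06 and -0.48 in the knockdown. The rescue minus knockdown difference was 1.77 (95% interval 1.27 to 2.27, limma adjusted p = 0.0499, 0.00757 with the block). Arc was at -1.51 and -0.49 in the knockdown, a difference of 1.96 (1.27 to 2.66; limma adjusted p = 0.107, 0.0131 with the block). Klf10, a zinc finger factor induced by growth signals, was at 0.68 and 0.85 in the rescue and at -1.26 and -0.41 in the knockdown, a difference of 1.60. Rem2, Rgs2, Crhr1 and Rgs13 had differences of 1.49, 1.35, 1.17 and 1.29, and Dusp15, a dual-specificity phosphatase, 0.84. In each of these 8 genes the rescue and knockdown values did not overlap. The choice of members fixed that, and the direction with it, so it is no sign of stability. Cntn6, a contactin adhesion protein, was at -0.85 and -0.80 in the rescue and at 0.12 and 0.05 in the knockdown, a difference of -0.91 (-1.29 to -0.54; limma adjusted p = 0.153, 0.0407 with the block). Its rescue mean of -0.82 had an adjusted p of 0.0474 with the block in limma.

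In the difference between rescue and knockdown, where the control array of a repeat cancels, limma called 14 genes (0.0702%), 8 lower in the rescue and 6 higher. With the block 123 were called (0.617%), 37 lower and 86 higher. Centring each column on its median left 4 (3 lower in the rescue and 1 higher), and quantile normalization 2 (1 and 1). Without rescue replicate 1 or rescue replicate 2 the count was 0, without knockdown replicate 1 it was 350, and without knockdown replicate 2 it was 147. The 6 higher in the rescue were Acvr1c, Cpne5, Gpr26, Homer1, Sema4a and Tafa1. Sema4a, a membrane semaphorin, was at 0.62 and 0.69 in the rescue against a knockdown mean of -0.88. Tafa1, a secreted neuronal protein, was at 0.68 and 0.57 against -1.37 and -1.85. Cpne5, a calcium-dependent phospholipid-binding copine, was at 0.47 and 0.60 against -0.78 and -0.88. Homer1, a postsynaptic scaffold, was at 0.31 and 0.26 against -1.14 and -1.05. In all 6 the rescue values were above 0 in both repeats, by 0.54 in the mean for Cpne5 and 0.29 for Homer1. The choice of genes higher in the rescue than in the knockdown favours such values, so they are no separate sign of an overshoot.

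At least 1.5-fold from control on the same side in both repeats of both groups were 1 of the 32 genes above and 10 of the 36 below. Above was Slc17a6, at 1.61 and 0.62 in the rescue and 0.66 and 1.42 in the knockdown, with a difference of 0.07 (95% interval -0.73 to 0.88). Below were Calm2, Calm3, Ppp3ca, Nptx1, Gad1, Lor, Cdh12, Pak6, Grm5 and Atp6v1e1. Ppp3ca was at -0.82 and -1.66 in the knockdown, and its difference was -0.14 (-0.75 to 0.46). Nptx1 was at -0.87 and -2.20, with a difference of 0.14 (-0.74 to 1.03), and Gad1 at -0.65 and -1.14, with a difference of 0.02 (-0.45 to 0.49). Cdh12, a type II cadherin, was at -0.66 and -0.80 in the rescue and -0.78 and -0.81 in the knockdown, a difference of 0.06 (-0.32 to 0.44). Pak6, a p21-activated kinase, was at -0.64 and -0.99 in the rescue and -1.35 and -1.39 in the knockdown, a difference of 0.56 (0.13 to 0.98; limma adjusted p = 0.499). The intervals of Nptx1 and Slc17a6 are wide enough to hold a difference of 1.5-fold in either direction. Rescue and knockdown share the control array of their repeat, so a deviation of that array and a change in both groups cannot be told apart.

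**Figure D3:**
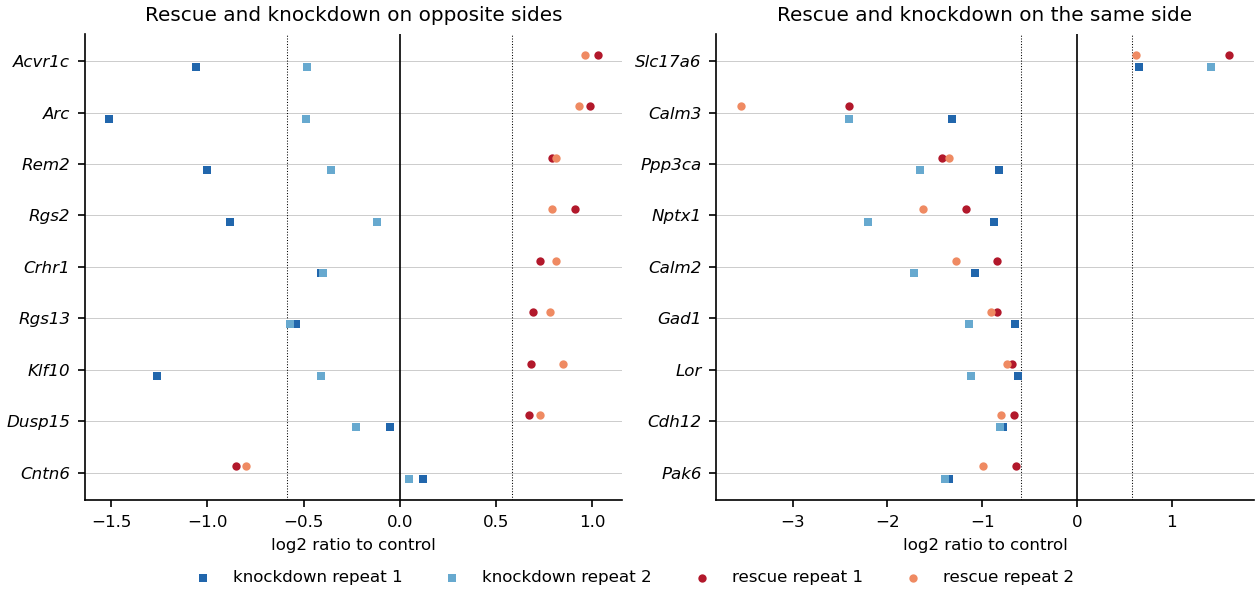
Log2 ratio to control in each repeat of genes on opposite sides of control in rescue and knockdown (left; the 8 highest of 15, and Cntn6) and of genes at least 1.5-fold from control on the same side in both groups (right; Slc17a6 and the 8 lowest of 10). Circles are rescue repeats and squares knockdown repeats; in Acvr1c the circles lie at 1.03 and 0.96 and the squares at -1.06 and -0.48.

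Transcripts with the clearest change in the knockdown mostly had rescue intervals that held 0, but less often than all genes did. Of 27 genes that rose in the knockdown in limma, 22 had a 95% interval of the rescue mean that held 0, and of 34 that fell, 19 did. Over all 19938 genes it held 0 for all but the 1484 with an unadjusted p under 0.05 in limma, a larger share than in either set. An interval that holds 0 does not show equality with control, and the widest reached 0.68 and 0.42 to either side of the mean. Syt2, a fast calcium sensor of vesicle release, was at 2.41 and 2.57 in the knockdown and at -0.25 and -0.17 in the rescue (interval -0.49 to 0.06). Coro6, a coronin, was at 1.79 and 2.15 and then at -0.02 and 0.15, and Vamp1, a vesicle SNARE, at 1.38 and 1.61 and then at 0.07 and 0.04. Nefh, the heavy neurofilament, lay past control on the other side: its knockdown values were 1.47 and 1.45, and its rescue values -0.44 and -0.68 (interval -0.84 to -0.28; limma adjusted p = 0.464, 0.0882 with the block). Among genes that fell, Hpca, the calcium sensor hippocalcin, was at -1.31 in both knockdown repeats and at -0.06 and 0.38 in the rescue. Cacna1i, a T-type calcium channel, was at -1.12 and -1.10 and then at -0.02 and 0.05. Gpr26, an orphan receptor, had a rescue mean of 0.31, with an interval from 0.00 to 0.62 that just left out 0 (limma adjusted p = 0.666), and a knockdown mean of -1.29. Vwa5b2, Maged2 and Nwd2 had rescue means of -0.18, -0.11 and 0.07.

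**Figure D4:**
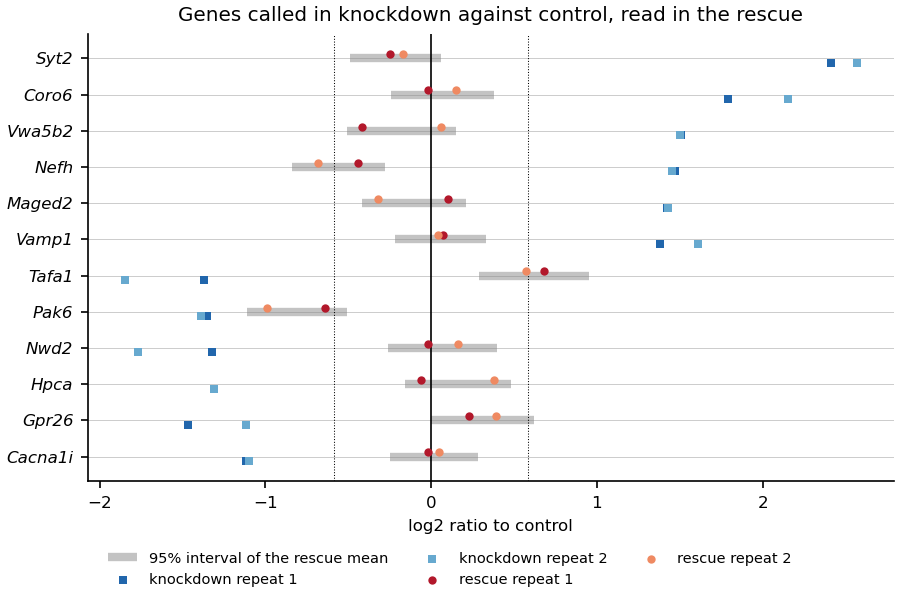
Log2 ratio to control of the 6 genes that rose and the 6 that fell farthest in both knockdown repeats (squares), with their rescue repeats (circles) and the 95% interval of the rescue mean from limma (grey bars). The bars of Nefh, Tafa1, Pak6 and, barely, Gpr26 lie wholly on 1 side of 0, and that of Syt2 runs from -0.49 to 0.06.

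Genes induced by neuronal firing lay above control as a list. These fall into immediate early genes, many of them transcription factors, and later genes whose products act at synapses or outside the cell. Of 24 immediate early genes measured, 19 were above control in both rescue repeats and 2 below in both, where 24.9% and 29.8% of all genes were. Their median was 0.29 (0.27 in repeat 1, 0.32 in repeat 2), and the knockdown medians were -0.64 and 0.14. None passed limma without the block, 1 passed with it and 5 passed in the rescue columns alone. Of all genes, 0.125% passed with the block and 0.883% in the rescue columns alone. Npas4, a neuron-specific factor induced by calcium entry, was at 0.54 and 1.70 in the rescue and -2.07 and -0.11 in the knockdown (rescue limma adjusted p = 0.613, 0.0474 with the block). Nr4a1, an orphan nuclear receptor, was at 0.30 and 1.20, and Egr1, a zinc finger factor, at 0.48 and 0.75. Fos, the best known of these genes, was near control at 0.04 and 0.32, and Jun lay below it at -0.11 and -0.27. Npas4 and Nr4a1 were higher in repeat 2 than in repeat 1, and Arc was alike in both.

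Of 35 later activity-regulated genes, 26 lay above control in both repeats and 3 below in both, beside 24.9% and 29.8% of all genes. Their median was 0.35 (0.44 and 0.19). The knockdown medians were -0.52 and 0.19. Past 1.5-fold above control in repeat 1 and repeat 2 alike were Ptgs2, Penk, Nptx2, Rgs2 and Inhba, and Nptx1 was below. Of all genes, 0.16% were so above and 0.181% below. With the block 3 passed above (Ptgs2, Penk, Pcsk1) and Nptx1 below, beside 0.125% of all genes in either direction. Inhba, the activin A subunit, was at 1.93 and 0.59 in the rescue and -1.07 and -0.12 in the knockdown, a rescue mean of 1.26 (SE 0.31). Bdnf, a neurotrophin, was at 0.46 and 0.53. Tac1, the substance P precursor, lay on the other side at -0.17 and -1.05. Both medians were above 0 with either repeat left out and under both normalizations tried.

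Many promoters of such genes carry the cAMP response element, which the calcium-responsive factor CREB binds, and its core TGACG was searched for in promoters of 250 bases before to 50 after the start (RefSeq, GRCm38.p6). TGACG was taken on either strand, and the full element was TGACGTCA, which holds TGACG on both strands. Of 15614 measured genes with a promoter, 28% held TGACG and 2.72% the full element. Of the 32 genes 1.5-fold above control, 23 had a promoter, and 8 of these held TGACG and 1 the full element. Of the 36 below, 26 had a promoter, and 5 held TGACG and 0 the full element. In the immediate early list TGACG was in 15 of 19 promoters and in the later list in 17 of 26, the full element in 3 and 5. The 1.5-fold sets therefore held it nearer to the share of all genes than the activity-regulated lists did. The windows below show it, in capitals, in 6 of the genes above control and in 2 further activity-regulated genes that passed with the block. Each is read on the gene's strand, where CGTCA is TGACG on the other strand. Capitals mark 1 match in each window. The Npas4 window also holds a match on the other strand, in lower case, that begins 179 bases before the start.
Ptgs2: gagtcaccactaCGTCAcgtggagtccgct
Trpc6: aggtggggatcgTGACGgaggacgtggggg
Car10: tggccgccccgcTGACGtggggactccggg
Rgs2: ttggggcgtggcTGACGcctccaggtcccg
Slc17a6: ctgagatagtaaTGACGcaagattgtgaat
Cds1: gggcccgagcatTGACGtcatcgcccgggg
Npas4: gacgtcacgggaTGACGtcggaagtctggg
Pcsk1: tccaggtagatcTGACGtcaagagatggct

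These windows lie at chr1:150100032-150100061 (+) for Ptgs2, chr9:8544027-8544056 (+) for Trpc6, chr11:93099131-93099160 (+) for Car10 and chr1:144004199-144004228 (-) for Rgs2. Those of Slc17a6, Cds1, Npas4 and Pcsk1 lie at chr7:51624523-51624552 (+), chr5:101765006-101765035 (+), chr19:4990123-4990152 (-) and chr13:75089767-75089796 (+). The match in capitals begins 13 bases after the start in Ptgs2, inside the transcript. In the others it begins 103, 147, 67, 102, 112, 169 and 78 bases before the start, in the order printed. Cds1, a phospholipid synthesis enzyme at 0.80 and 0.68, and Pcsk1 carry the full element here. A match is a description of these letters and says nothing of binding.

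Amino acid response genes, which ATF4 induces when amino acids are short or protein folding is disturbed, were listed together with amino acid transporters. This joint list had a median of 0.27 over 24 measured members (0.20 and 0.29). Of these, 14 lay above control in both repeats and 2 below in both, beside 24.9% and 29.8% of all genes. Ddit3, which encodes the stress factor CHOP, was at 0.67 and 0.85, and Trib3, a pseudokinase, at 0.29 and 0.64. Chac1, a glutathione-degrading enzyme, was at 0.56 and 0.42. Slc7a3 was the highest, and Slc7a11, the cystine transporter, was at -0.59 and 1.11, with the repeats on opposite sides. The unfolded protein response and heat shock list had a median of 0.04 over 20 genes. The knockdown medians of the amino acid list were -0.12 and 0.39, and limma called none of its members in the rescue without the block and Slc7a3 with it.

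Most interneuron markers lay below control. Of 22 measured, 14 were below in both repeats, as 29.8% of all genes were, and 1, Lamp5, was above in both, with a median of -0.27 (-0.26 in repeat 1 and -0.51 in repeat 2). Knockdown medians were 0.06 and -0.53. Besides Gad1, Reln, the secreted protein reelin, was at -0.54 and -0.91, and Calb2, the calcium buffer calretinin, at -0.51 and -0.87. Vip, a peptide of 1 interneuron class, was at -0.53 and -0.71. Lamp5, a membrane protein of another class, was at 0.64 and 0.61. The other 7 markers had repeats on opposite sides. Among them were the class markers Sst (0.09 and -0.54), Npy (0.17 and -0.08) and Pvalb (0.39 and -0.27). Gad2, the other GABA-synthesizing enzyme, was at -0.28 and -0.58, Slc32a1, the vesicular GABA transporter, at -0.41 and -0.20, and Dlx1, a lineage homeobox factor, at -0.33 and -0.32. Only Gad1 passed with the block (limma adjusted p = 0.0482), and a fit of the rescue columns alone passed Gad1, Reln, Calb2 and Vip below and Lamp5 above. These 2 fits passed 0.125% and 0.883% of all genes.

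Markers of other cells had smaller medians. Pan-neuronal markers had a median of 0.03 and excitatory markers one of -0.11, with Slc17a6 the only excitatory marker past 1.5-fold in both repeats. For microglia and macrophage markers it was -0.18 (-0.32 and -0.14), with 7 of 17 below control in both repeats, as 29.8% of all genes were. Among these 7 was C1qb, a complement subunit, at -0.92 and -0.16. Astrocyte markers had a median of -0.07 against 0.29 in the knockdown, with Gfap, the astrocyte filament, at -0.46 and -0.31. Oligodendrocyte, endothelial and mural, fibroblast and cell cycle lists had medians of -0.09, -0.01, 0.00 and -0.08. In these 6 lists besides the neuronal ones 0 genes passed limma in the rescue, with or without the block. A summed marker level could not be formed from ratios, and the part of cell makeup in the values above was not tested.

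**Figure D5:**
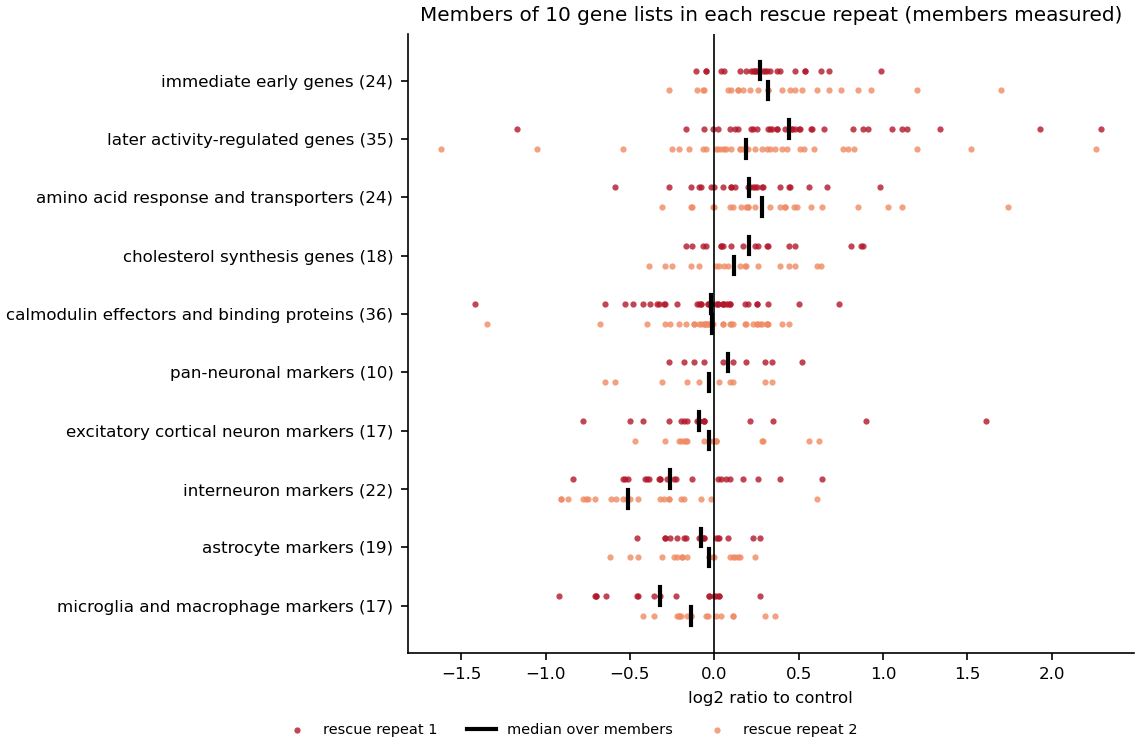
Log2 ratio to control of every measured member of 10 gene lists in rescue repeat 1 (dark) and rescue repeat 2 (light), 1 point a gene, with black bars at the median of the list in that repeat. Immediate early genes have medians of 0.27 and 0.32, interneuron markers -0.26 and -0.51, and calmodulin effectors -0.02 and -0.02.

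Calmodulin's own effectors lay around control. Of 36 measured calmodulin-binding enzymes and proteins, 11 were above control in both repeats, 13 below in both and 12 on opposite sides. Of all genes, 24.9% were above in both and 29.8% below in both. The list median was -0.01, which turned to 0.01 under either normalization. Apart from Ppp3ca, the farthest were Nos1, neuronal nitric oxide synthase, at -0.65 and -0.40, and Pcp4, a small calmodulin-binding protein, at 0.74 and 0.05. Camk2a, the alpha subunit of calcium/calmodulin kinase II, was at -0.42 and -0.29. Ppp3ca was thus the only member past 1.5-fold in both repeats, and the only one that passed with the block. Among neuronal calcium sensors and buffers, Kcnip3, the potassium channel partner DREAM, was at 0.33 and 0.78, and Kcnip1, a related channel partner, at -0.63 and -0.62.

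Synaptic and membrane lists had rescue medians close to 0 and knockdown medians below it, with control arrays shared. Vesicle release genes had a median of -0.04 in the rescue and -0.28 in the knockdown, glutamate receptors -0.01 and -0.36, postsynaptic scaffolds 0.03 and -0.40, and potassium and HCN channels 0.00 and -0.37. Cholesterol synthesis genes had 0.11 and -0.52. Single members still stood off. Grm5, a metabotropic glutamate receptor, was at -0.85 and -0.59, and Grin2d, an NMDA receptor subunit, at -0.70 and -0.65. Erc2, which organises the presynaptic active zone, was at -0.65 and -0.57, and Kcnc2, a fast potassium channel, at -0.59 and -0.81. Syt10, a synaptotagmin, was at 0.38 and 1.15. Idi1, an isomerase of the cholesterol pathway, was at 0.87 and 0.63 in the rescue and at -0.03 and -0.94 in the knockdown, while Hmgcs1, an earlier enzyme of that pathway, was at 0.05 and -0.39. None of these 7 genes passed limma in the rescue with the block.

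Of 24 listed ribosomal protein genes 14 were measured, with a median of 0.14 and Rpl7 the highest at a mean of 0.41. Of these 14, 11 were above control in both repeats, as 24.9% of all genes were. Interferon response genes had a median of -0.01, and Cxcl10, a chemokine, stood apart at 0.62 and 1.07. The p53 and apoptosis list had a median of -0.02. In all, 30 of 35 lists had a median within 0.2 of 0.

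A few genes were far from control in opposite directions in the repeats. At least 1.5-fold off in both, with opposite signs, were 5 genes. Among them were Vwc2l (-0.88 and 0.90), Krtap5-2 (0.73 and -0.62), Syt17 (-0.59 and 0.71) and Slc7a11 (-0.59 and 1.11). Plxnd1 (-0.70 and 0.57) came next among the named genes and missed the limit in repeat 2. Vwc2l is a secreted neural protein, Syt17 an atypical synaptotagmin and Plxnd1 a semaphorin receptor. No gene was 2-fold off in opposite directions, against 7 that were 2-fold off in the same one.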

How the data were processed

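The authors deposited linear ratios of each test array to its repeat's control array, per the labels. Background correction, summarization, normalization and genome build are not given in the sources used here. Of 35399 probe sets, 21789 had exactly 1 symbol in the platform annotation, 1621 several and 11989 were not listed there. Symbols of 21698 were matched to RefSeq by Entrez identifier, which changed 0. Ratios were put on the log2 scale and averaged per symbol, giving 19938 genes, 999 from more than 1 probe set.

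Genes were fitted with limma 3.58.1 in R 4.3.3 (no intercept, a coefficient for each group, two-sided, Benjamini-Hochberg over all genes), tested against 0 and between groups. The 4 columns gave 2 residual and 6.11 prior degrees of freedom. The method was tested on simulated data, with a limit on false calls set only for the fit of all 4 columns without the block. Tables and figures were made with Python 3.11.15.

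Samples of 1 repeat carry the same replicate date in the labels, which pairs them across groups, and deviations of same-numbered columns correlated at 0.305. No label states separate cultures for the repeats, so the p-values rest on the spread between these samples alone, and that may be technical. Alternatives were the replicate block, the rescue columns alone, quantile normalization, median centring, single probe sets, a 2-fold limit and each replicate left out. Testing all 35399 probe sets was added after the data were seen.

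The samples, the 35 gene lists (758 genes, 696 measured) and the naming rule were chosen with earlier results of these data known. The rule took the calmodulin genes, the 15 genes per direction farthest from control in both repeats, 4 members of each list by size, up to 8 genes per direction on opposite or on the same side in rescue and knockdown, 5 whose repeats disagree and 6 per direction called in the knockdown. Predicted genes, receptor families of smell and taste, small RNA genes and antigen receptor segments were counted, not named. Other list members named, and genes called with the block or in the difference, were chosen after their values were seen, as was the promoter motif.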

Additional observations from a re-analysis of the deposited data

How the results depend on the processing

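The labels pair the repeats, and with the replicate block the count of genes past the threshold moved from 0 to 25 in rescue against control and from 14 to 123 in knockdown against rescue; of 186 named genes it brought 19 past the threshold. The rescue columns alone called 176 and quantile normalization 1, while median centring and single probe sets, also all 35399, called 0. Leaving out 1 replicate gave 0 to 176. For knockdown against rescue, quantile normalization gave 2, centring 4, single probe sets 4, all probe sets 0 and leaving out 1 replicate 0 to 350. Genes 1.5-fold above control in both repeats became 4 at the 2-fold limit and 195 to 232 in a single repeat; those below became 3, 73 under quantile normalization and 222 to 233. The cause of these changes was not tested, except that 1 repeat, the 2-fold limit and fewer columns change the count by construction. Named means that changed sign lay near 0 or had repeats that disagree: Vwc2l was -0.06 under quantile normalization. Leaving out 1 rescue replicate gave -0.88 to 0.90 for Vwc2l, -0.40 to 0.00 for Bcl2l11, -0.02 to 0.05 for Cacna1i, -0.02 to 0.15 for Coro6, -0.06 to 0.38 for Hpca, -0.10 to 0.62 for Hspb1, -0.62 to 0.73 for Krtap5-2, -0.32 to 0.10 for Maged2, -0.58 to 0.05 for Mki67, -0.64 to 0.17 for Mx2, -0.18 to 0.90 for Neurod6, -0.02 to 0.16 for Nwd2, -0.70 to 0.57 for Plxnd1, -0.48 to 0.15 for Postn, -0.09 to 0.47 for Ryr3, -0.59 to 1.11 for Slc7a11, -0.59 to 0.71 for Syt17, -0.10 to 0.42 for Trpc5 and -0.42 to 0.06 for Vwa5b2. Median centring changed no sign or call among the 186 named genes. Signal over background is unknown from ratios, so dim genes could not be told from others.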

Other observations

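Probe sets that the platform annotation does not list held larger shares of values far from control than annotated ones did. Of 11989 such probe sets, 72 were at least 1.5-fold above control in both rescue repeats (0.601%) and 95 below (0.792%), against 37 (0.17%) and 39 (0.179%) of 21789 probe sets with 1 symbol. At the 2-fold limit the unlisted probe sets held 3 above and 7 below. Among 1621 probe sets with several symbols, 1 was 1.5-fold above and 0 were below. These shares were not tested, and the unlisted probe sets have no name here.

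Some genes passed with the block although only 1 rescue repeat was past 1.5-fold. The block does not count the shift between repeats that rescue and knockdown share as error of the rescue mean. Cckbr, a receptor for cholecystokinin and gastrin, was at 0.44 and 1.90 in the rescue and at -1.05 and 0.56 in the knockdown (block adjusted p = 0.00898 in limma; 0.59 without). Arxes1 was at 1.28 and 0.45, and Tgm3, a transglutaminase, at 0.52 and 1.09. Krt73, a keratin, was at -0.43 and -1.73 in the rescue and at -0.36 and -1.74 in the knockdown. Its rescue mean had a limma adjusted p of 0.011 with the block and 0.573 without. Trim62, a ubiquitin ligase, was at -0.40 and -1.17 in the rescue.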
